A study of Mus musculus with 4 samples.

Results

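CTCF-bound regions found in both the posterior trunk and the brain of mouse embryos were compared for how strongly each was enriched in either tissue. A region entered when a CTCF peak of the posterior trunk list and a CTCF peak of the brain list shared at least 1 base. Of 121759 regions called in any of the 4 libraries of the series, 65320 met this rule. They made up 61.3% of the 106614 trunk regions and 88.7% of the 73626 brain regions. A further 41294 regions had a trunk peak and no brain peak, 8306 had the reverse, and neither kind is described here.

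Both libraries came from wild-type (WT) embryos of the B6CBAF1 background and were made by chromatin immunoprecipitation and sequencing (ChIP-seq) with the same CTCF antibody (Active Motif). The trunk library was labelled E10, for embryonic day 10, and pooled about 30 embryos of E9.75 to E10. Its tissue was the tailbud with the presomitic mesoderm and the newest somites, with the forming hindlimb buds cut away where this could be done. The brain library pooled 6 telencephalons, the front part of the forebrain, of E12.5 embryos. Distal and proximal forelimb libraries of E12.5, also WT and B6CBAF1 and re-analysed from earlier work, served as outside points of reference. With 1 library per tissue there is no replicate check on any difference and no test between tissues, and tissue cannot be told apart from stage or from the library itself. CTCF peaks do not measure expression, so the identity of the dissected tissue could not be checked against marker genes.

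CTCF is a zinc-finger protein that recognises a long GC-rich motif and, together with the cohesin ring, holds the bases of chromatin loops and the borders of topological domains. Most CTCF sites are occupied in many cell types, while a smaller share differs between tissues, often at weaker sites or where the DNA can be methylated. At the Hoxd cluster, which patterns the body axis and the limbs, CTCF sites lie between genes that respond to regulatory landscapes on either side.

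Strength was the fold that the authors' peak caller gave for a peak's summit, which is the number of extended reads over the summit (the pileup) divided by the local background, each with 1 added. Folds are the authors' values and were ranked only within their own list. Each shared region was given a percentile among the 65320 regions in trunk and, separately, in brain, with 100 for the strongest. The shift of a region is its trunk percentile minus its brain percentile, so that a positive shift means a higher place in trunk. Regions shifted by at least 25 points were counted. Because the fold depends on the background as well as on the reads, the shift of pileup percentiles is given beside it throughout. Where a region holds several peaks of a list, the peak with the highest fold was used.

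Gene promoters are where sequence was at hand, so the promoter regions with the largest shifts in each direction are shown with the DNA under them. The letters are RefSeq sequence (GRCm38.p6, the assembly also called mm10) and run 5′ to 3′ on the strand of the motif. Capitals mark the match to the core of the CTCF motif, searched as CCNNNAGNNGGC on both strands, with its centre within 100 bases of the trunk or brain summit. These are the 4 protein-coding promoters with such a match whose regions ranked highest in brain relative to trunk.
Fgf7 promoter, chr2:126034448-126034519, minus strand: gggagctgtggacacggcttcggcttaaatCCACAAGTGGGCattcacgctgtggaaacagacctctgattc
Zc3h15 promoter, chr2:83644381-83644452, minus strand: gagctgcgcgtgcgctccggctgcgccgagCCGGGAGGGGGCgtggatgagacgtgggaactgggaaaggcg
Chgb promoter, chr2:132781520-132781591, minus strand: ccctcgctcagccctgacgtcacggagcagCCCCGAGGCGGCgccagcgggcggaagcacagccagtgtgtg
Mios promoter, chr6:8209093-8209164, plus strand: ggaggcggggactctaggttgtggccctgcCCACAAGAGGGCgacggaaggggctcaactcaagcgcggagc
The Fgf7 promoter region, at a gene for a fibroblast growth factor made by mesenchyme, had 66 extended reads over its summit in trunk and 186 in brain. Its fold was 3.88 in trunk and 10.04 in brain, which placed it at percentile 12.9 and 68.5, a shift of -55.6 points. The region at Zc3h15, a zinc-finger gene, had a pileup of 89 in trunk and 158 in brain and shifted by -46.1 points. At Chgb, which encodes the secretory-granule protein chromogranin B of neuroendocrine cells and neurons, the pileup was 61 against 114. Mios, a regulator of the mTORC1 pathway, had 62 against 97. In all 4 the brain library had the higher pileup, although over all shared regions the trunk library had the higher one.

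These are the 4 promoters with a match whose regions ranked highest in trunk relative to brain.
1700102P08Rik promoter, chr9:108392689-108392760, minus strand: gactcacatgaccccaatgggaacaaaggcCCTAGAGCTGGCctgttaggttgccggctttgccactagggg
Tmem123 promoter, chr9:7763978-7764049, minus strand: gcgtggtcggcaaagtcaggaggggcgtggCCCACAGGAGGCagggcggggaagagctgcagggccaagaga
Lmcd1 promoter, chr6:112273547-112273618, minus strand: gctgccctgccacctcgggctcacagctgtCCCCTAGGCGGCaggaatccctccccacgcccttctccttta
Pou5f2 promoter, chr13:78024809-78024880, minus strand: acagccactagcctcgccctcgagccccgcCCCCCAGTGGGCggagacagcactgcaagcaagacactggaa
The region at 1700102P08Rik had a pileup of 94 in trunk and 24 in brain, with folds of 7.26 and 2.26 and a shift of 41.5 points. Tmem123, a transmembrane protein gene, had 103 against 25. Lmcd1, a LIM-domain gene, had 114 against 35. Pou5f2, a POU homeobox gene, had 157 against 47 and was at percentile 67.9 in trunk and 33.7 in brain. The capital stretches of Chgb, Zc3h15 and Lmcd1 hold CG pairs, the bases at which mammalian DNA is methylated, and the other 5 hold none. Methylation was not measured.

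The same 12-letter match occurred in 8.61% of all 32851 RefSeq promoter windows of 300 bases. A shared region was placed at a promoter when the midpoint of its trunk and brain summits lay in such a window. Of these 1844 promoter regions, 663 (36.0%) had the match in the sequence of a window that held their midpoint. Among promoter regions shifted toward trunk by 25 points or more, 11 of 46 (23.9%) had it there. Among those shifted toward brain, 53 of 194 (27.3%) did, and among the promoter regions between, 599 of 1604 (37.3%). The share was highest in the promoter regions between. The median GC content of the windows was 57.5% for trunk-shifted, 64.2% for brain-shifted and 60.3% for the others.

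The order of strength was largely shared between the tissues. Across the 65320 regions the Spearman correlation of fold was 0.882 and that of peak width 0.790, given as a description because regions of the same libraries are not replicates. Of these regions 31.3% lay within 5 percentile points in both tissues and 55.2% within 10. The interquartile range of shifts was -9.06 to 8.49 points, with extremes of -73.8 and 82.3. Trunk peaks were the taller: the median pileup was 149 in trunk and 91 in brain, the median fold 8.32 and 6.64, and the median width 478 and 380 bases. The median trunk-to-brain ratio of pileup was 1.39, and 1.09 was the ratio of the lowest backgrounds (9.34 and 8.53 reads), which scale with sequencing depth. Read totals are not in the lists, so only relative depth can be stated.

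**Figure D1:**
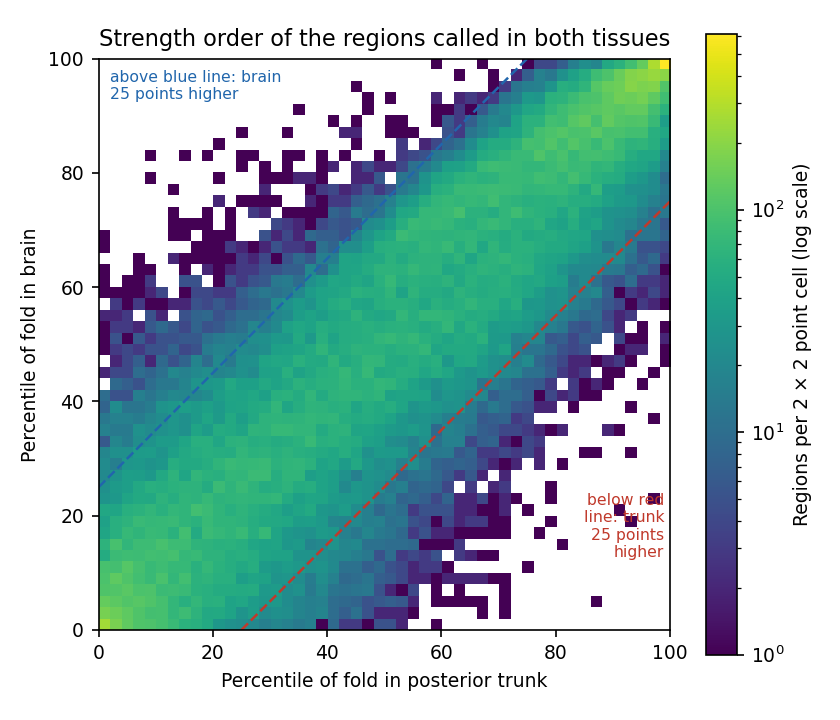
Number of shared regions by percentile of fold in posterior trunk (horizontal, 100 strongest) and in brain (vertical), in cells of 2 by 2 points on a logarithmic colour scale. Most of the 65320 regions lie along the diagonal; 2865 lie on or below the red dashed line and 2014 on or above the blue one.

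The pileup ratio was not the same at all strengths. By the mean of both percentiles, it was 1.32 at 0 to 10, 1.66 at 30 to 40 and 1.14 at 90 to 100. The highest pileups were 399 in trunk and 393 in brain, under the 400 that an extension of 200 bases allows if each start on each strand is kept 1 time. A pileup over 300 was found in 18.5% of shared regions in trunk and in 7.67% in brain. The handling of repeated reads was not given in the sources used here, and the part of such a ceiling in the shifts was not tested.

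A total of 2865 regions (4.39%) ranked at least 25 points higher in trunk and 2014 (3.08%) at least 25 points higher in brain. The trunk-shifted regions had a median pileup of 130 in trunk against 41 in brain and a median fold of 9.18 against 3.71. They were of middling strength in trunk, at a median percentile of 56.4, and weak in brain, at 22.7. The brain-shifted regions had a median pileup of 62 in trunk against 90 in brain and a median fold of 4.28 against 6.62. Their median percentiles were 16.7 in trunk and 49.9 in brain. At the median, both sets were of middle rank in the tissue of higher place and under percentile 25 in the other. These values follow from the selection and are a description.

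Peak width, which the ranking did not use, moved with the fold. Of the trunk-shifted regions 81.9% also ranked wider in trunk, with a median width shift of 17.9 points, while 9.63% of the brain-shifted regions did, with a median of -23.1. Width and height come from the same reads of the same peak, so width is not a separate measurement of binding. Across all shared regions the 2 shifts had a Spearman correlation of 0.392.

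Ranking by pileup in place of fold kept the direction of all 2865 trunk-shifted regions and of 1972 of the 2014 brain-shifted regions. The pileup is part of the fold by which these regions were chosen, so the shared direction largely restates the choice. A shift of 25 points or more by both measures was found for 946 regions toward trunk (1.45%) and for 1082 toward brain (1.66%). The 946 had a median pileup of 124 in trunk and 33 in brain and median widths of 484.5 and 266 bases. The 1082 had a median pileup of 54 in trunk and 85 in brain and median widths of 323 and 371 bases. The trunk excess in the fold count was therefore absent from the count by both measures.

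The counting error of single regions was set beside the shifts. Against the median ratio of 1.39, the exact (Clopper-Pearson) 95% interval of the pileup ratio lay above it in 13498 of all shared regions (20.7%) and below it in 13328 (20.4%). It lay above for 99.7% of the trunk-shifted and below for 93.2% of the brain-shifted regions, which were chosen from the same reads, so that these shares partly restate the choice. Set against the ratio of the lowest backgrounds, 1.09, the interval lay below in 55.0% of the brain-shifted regions and above in 100% of the trunk-shifted. Over all shared regions it lay below in 2.38% and above in 45.4%. Such intervals cover the counting of reads in these 2 libraries only. At the edge of the count, the last region inside toward trunk lay near Incenp (percentiles 35.8 and 10.8) and the nearest outside lay in Armc6 (81.0 and 56.0). Toward brain the last inside lay in Veph1 (17.3 and 42.3) and the nearest outside in Cacnb4 (26.0 and 51.0).

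Limb folds are given beside the others where a limb peak overlapped. They come from shallower libraries (lowest background 4.23 reads distally and 4.58 proximally), and folds of different libraries are side by side as values without a common scale.

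The region with the largest shift toward trunk lay at chr1:166349756-166350356, 28.8 kb from Tada1, which encodes a subunit of the SAGA coactivator. It had 191 extended reads over the summit in trunk and 24 in brain, a ratio of 7.96 (95% counting interval 5.19 to 12.7). Its fold was 13.7 in trunk and 2.62 in brain, which put it at percentile 86.5 and 4.18. In both forelimb parts it was strong, with folds of 9.93 distally and 13.4 proximally, so that brain was the library that stood apart. A region at chr13:31705385-31705835, 74.0 kb from Foxf2, a forkhead factor of mesenchyme, had the same pattern. Its folds were 12.03 in trunk, 3.02 in brain, 13.9 in distal and 12.3 in proximal forelimb.

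Other regions were far higher in trunk than in the other 3 libraries. At chr1:16160042-16160495, 27.5 kb from Rdh10, whose enzyme starts the synthesis of retinoic acid from retinol, the pileup was 166 in trunk and 35 in brain. The fold there was 15.5 in trunk against 3.78 in brain, 4.02 in distal and 4.12 in proximal forelimb. At chr16:75726024-75726621, 28.6 kb from Hspa13, of the Hsp70 chaperone family, the folds were 14.3, 3.57, 4.4 and 3.58 in the same order. At Zfp560, a zinc-finger gene, a region inside the gene had folds of 14.7, 4.30, 6.31 and 4.30. In these 3 regions the limb libraries lay beside brain and far below trunk.

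The remaining 7 of the 12 regions most shifted toward trunk had trunk pileups between 115 and 251. A pair of signalling genes were among their neighbours, where Prickle1, of the planar cell polarity pathway, was 278 kb from its region, and Trib1, a pseudokinase, 23.5 kb. The region near Prickle1 had 115 reads in trunk and 24 in brain, and that near Trib1 190 and 29. Regions inside Ust, a sulfotransferase gene, Insig2, a regulator of sterol synthesis, and Hpn, a membrane protease gene, had trunk folds of 14.5, 11.3 and 11.2. Their brain folds were 3.46, 2.58 and 2.94. The region inside Olfr575, an olfactory receptor gene, had folds of 10.8 and 2.56 and no peak in either forelimb list. In all 12 the peak was wider in trunk, and the lower bound of the pileup ratio was at least 2.91.

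The region with the largest shift toward brain lay inside Tmco4, at chr4:139054568-139055065. It had a pileup of 41 in trunk and 215 in brain, and a fold of 3.46 against 12.9, at percentiles 8.87 and 82.6. Its fold in distal forelimb was 3.26, and the proximal list held no peak there. A region inside Nek11, a cell-cycle kinase gene, had folds of 3.39 in trunk, 12.1 in brain, 3.72 in distal and 3.94 in proximal forelimb. The region nearest to Stmn4, a stathmin gene of neurons, lay 62.4 kb away and had folds of 4.06, 13.2, 3.06 and 3.92. In these 3 regions brain stood above the other 3 tissues.

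At the brain-shifted regions of Clasp2 and Hdlbp the limb shared the higher level. A region inside Clasp2, whose protein binds growing microtubule ends, had folds of 2.49 in trunk, 10.3 in brain, 8.65 in distal and 8.78 in proximal forelimb. The promoter region of Hdlbp, which encodes the RNA-binding protein vigilin, had 45 reads in trunk and 154 in brain. Its folds were 2.51, 9.87, 11.1 and 10.1, so that trunk was the library that stood apart. Inside Adgrb3, an adhesion receptor gene of neurons, the folds were 4.55, 13.0, 7.26 and 8.43. Inside Cacna1h, a T-type calcium channel gene, they were 2.61, 8.91, 6.74 and 4.95, with a pileup of 26 in trunk and 110 in brain. In Adgrb3 and Cacna1h the limb folds thus lay between those of trunk and brain. Regions at chr8:112268150-112268560 and chr8:112257460-112257949, both over 200 kb from Terf2ip, were a pair of neighbours that shifted together, by -63.7 and -59.5 points. Limb folds were low at both. The former had 3.31 distally and no proximal peak, and the latter 3.17 and 4.21. All 12 regions most shifted toward brain were wider in brain, and the upper bound of their trunk-to-brain pileup ratio was at most 0.439.

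**Figure D2:**
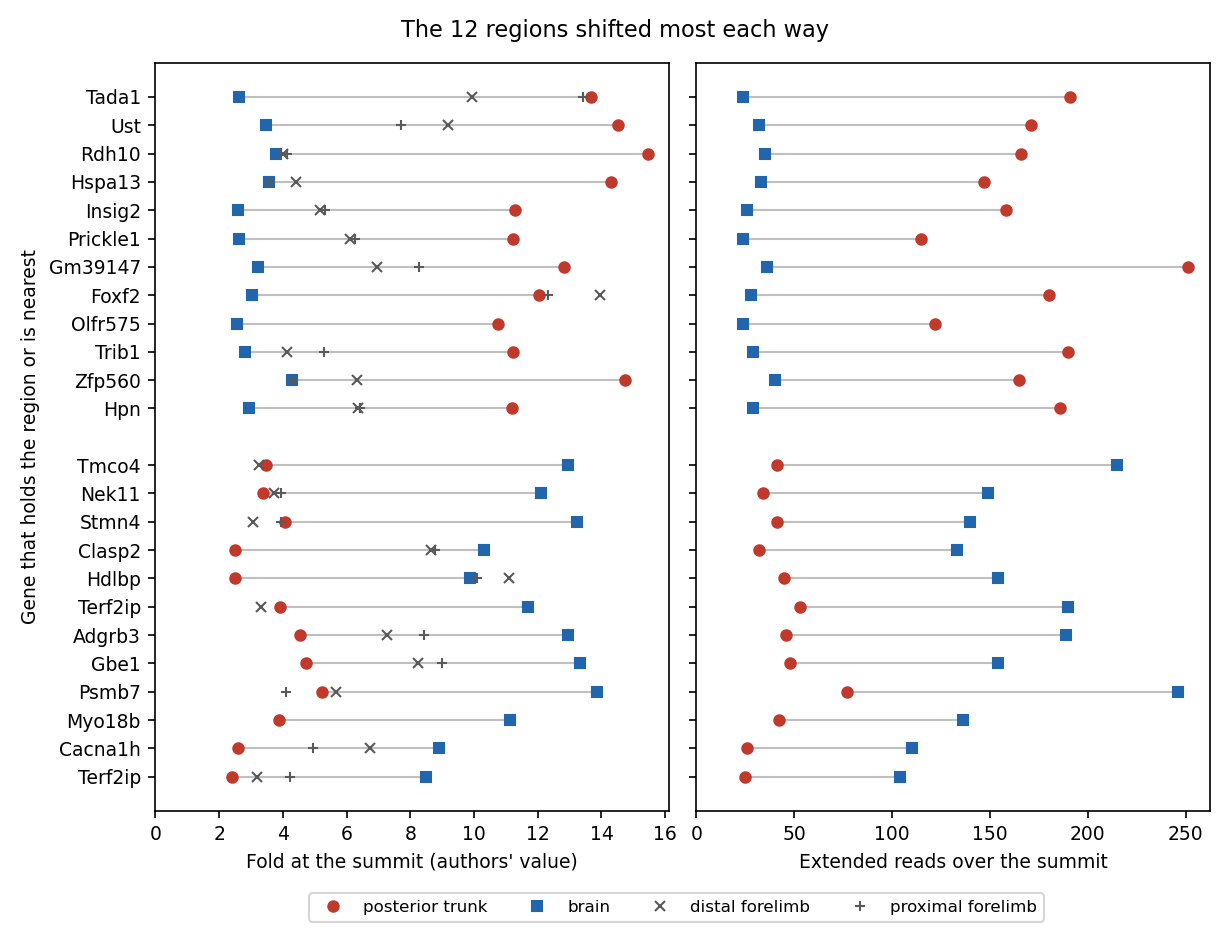
Fold at the summit (left) and extended reads over the summit (right) for the 12 regions shifted most toward posterior trunk (upper block) and the 12 shifted most toward brain (lower block), named by the gene that holds or is nearest to the region, 1 library per tissue. Limb folds are shown where a limb peak overlapped: they lie near brain for Rdh10 and Hspa13, near trunk for Foxf2 and Tmco4, and near brain for Clasp2 and Hdlbp.

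Ranking the 24 regions by pileup, by the authors' −log10 p or within the whole deposited lists left all of them shifted by more than 25 points in the same direction. The smallest of these shifts was 34.4 points. These 24 were chosen for the largest fold shifts, and the other measures come from the same reads, so this partly restates the choice. Of all trunk-shifted regions 33.0% passed 25 points by pileup, and of all brain-shifted regions 53.7%. Of the 12 toward trunk 11 had a peak in both forelimb lists, and of the 12 toward brain 9 did. Over all shared regions 79.1% did, so these counts were near the background. By place, 5 of the former and 8 of the latter lay inside a gene. Over all shared regions 45.1% lay inside a gene and over 1 kb from any gene end, which is a narrower class.

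Among regions strong in both tissues, those at percentile 50 or higher in each list, a shift cannot exceed 50 points. Of these 28575 regions, 503 (1.76%) were shifted by 25 points toward trunk and 98 (0.343%) toward brain, and the limit set by the filter makes these shares no measure against the 4.39% and 3.08% of all shared regions. The largest trunk shift among them, at chr4:144420548-144421088 in 1700012P22Rik, had pileups of 315 and 83 and folds of 16.4 and 6.73. A region 73.0 kb from Disc1, a scaffold protein gene of neurons, had 302 against 80. Toward brain, the region in Ylpm1 had 120 reads in trunk and 212 in brain, with folds of 8.57 and 15.1. A region 0.44 kb from Olig2, the transcription factor of oligodendrocyte and motor neuron progenitors, lay at chr16:91224685-91225111. It had 138 reads in trunk and 198 in brain and folds of 8.78 and 14.3, against 8.31 and 7.03 in the forelimb parts, so that brain was the highest of the 4. A region in Bmf had nearly equal pileup percentiles, with a shift of -0.28 by pileup against -36.85 by fold, where the background was 42.3 in trunk and 22.9 in brain.

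The 5 regions with the largest shifts in width toward each tissue were weak ones and not those with the largest shifts in fold. In Ttbk2, a tau-tubulin kinase gene, the peak was 1301 bases wide in trunk and 200 in brain, with folds of 4.14 and 2.70. In Btbd8 it was 1037 against 218 bases. In the other direction, the peak in Ankrd17 was 257 bases wide in trunk and 957 in brain, with folds of 2.08 and 2.59. The regions near Zfp985 and in Zfp978, a pair of zinc-finger genes on chromosome 4, were 212 and 262 bases wide in trunk and 727 and 825 in brain. In the Ttbk2 region the brain list held 2 peaks, and near Zfp985 the trunk list held 2. There the narrow width is that of the peak with the highest fold only. The part of such split peaks in the width shifts was not tested.

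The forelimb libraries ranked their regions more like brain than like trunk. Over 51657 regions, which had to have a peak in both forelimb lists as well, the Spearman correlation of fold was 0.859 between trunk and brain, 0.828 between trunk and distal and 0.806 between trunk and proximal forelimb. It was 0.928 between brain and distal, 0.923 between brain and proximal and 0.948 between the forelimb parts. Ranks of pileup gave the same order, from 0.899 for trunk with proximal forelimb to 0.965 for the forelimb parts. These pairs share libraries, and trunk differed from the other 3 also in stage.

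Ranked within these common regions, 3114 (6.03%) were at least 25 points higher in trunk than in brain, and 2080 (4.03%) at least 25 points lower. The 3114 had median percentiles of 64.9 in trunk and 31.5 in brain, and of 38.0 in distal and 36.9 in proximal forelimb. The 2080 had 25.5 in trunk and 57.4 in brain, and 55.3 and 57.9 in the forelimb parts. Both limb parts were nearer to brain than to trunk in 72.3% of the former and in 75.9% of the latter, against 54.3% of the regions that shifted less. Both were nearer to trunk in 11.3% and 10.5%, against 21.2%. By ranks of pileup the shares nearer to brain were 57.5% and 64.5%, against 49.2%. Of all common regions 541 (1.05%) were shifted toward trunk and 796 (1.54%) toward brain by both measures, and in 57.7% and 60.8% of these both limb parts were nearer to brain by fold. The sets were chosen for a large difference between trunk and brain, and a limb level nearer to brain is not a shift of 25 points from trunk.

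**Figure D3:**
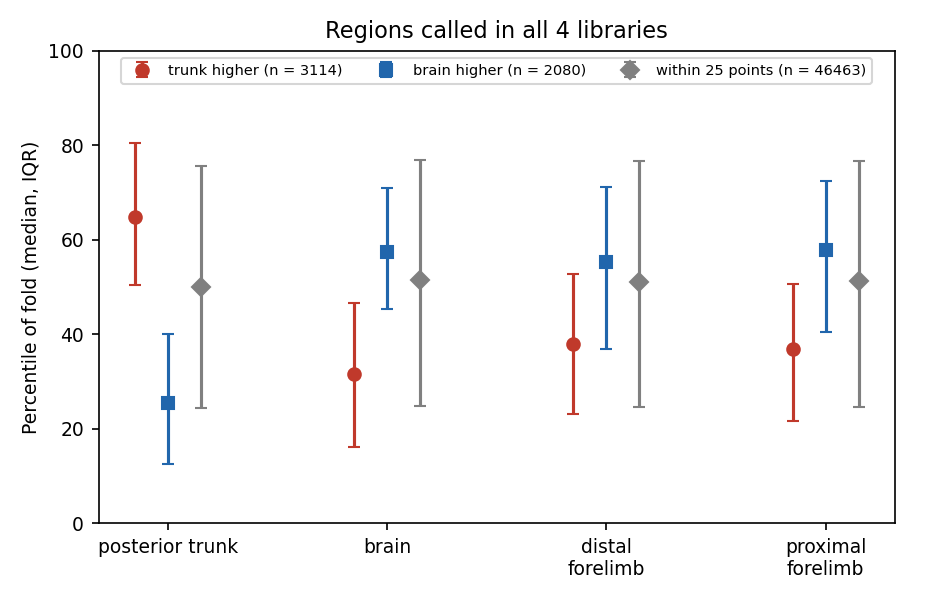
Percentile of fold within each library (median with the interquartile range over regions) for regions called in all 4 libraries, split by the difference between posterior trunk and brain. Trunk-higher regions have medians of 38.0 and 36.9 in the forelimb parts and brain-higher regions 55.3 and 57.9, nearer to the brain medians of 31.5 and 57.4 than to the trunk medians of 64.9 and 25.5.

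Regions at promoters ranked lower in trunk. The 1844 regions with their summit midpoint in a promoter window had a median shift of -8.02 points by fold and -3.06 by pileup. Of these, 194 (10.5%) were shifted by 25 points toward brain and 46 (2.49%) toward trunk, against 3.08% and 4.39% of all shared regions. By both measures 84 (4.56%) were shifted toward brain and 35 (1.9%) toward trunk. The 7644 regions within 1 kb of an end of a gene span had a median of -5.86 by fold and -1.43 by pileup. Regions deeper inside genes, at -0.31 by fold and 0.06 by pileup, lay near the median of all regions, which was -0.48 by fold.

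Away from genes the order by fold ran the other way. The 10453 regions over 50 kb from any gene had a median shift of 3.05 points by fold, and 7.58% of them were shifted toward trunk. By pileup their median was 0.14, and by both measures 1.96% were shifted toward trunk and 2.04% toward brain. Crowding gave a like contrast. Regions with another shared region within 2 kb had a median of -7.73 by fold and -0.18 by pileup, and those with none within 50 kb 4.06 by fold and -0.58 by pileup.

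The local background differed between some of these classes. Across all shared regions the Spearman correlation of the fold shift with the trunk-to-brain ratio of background was -0.011. The median background was 24.6 reads in trunk and 17.9 in brain, a ratio of 1.37, at regions with a close neighbour. It was 1.13 times as high in trunk at isolated ones and 1.3 times over all shared regions. At promoters the ratio was also 1.3. By pileup the medians by crowding and those of regions over 50 kb from genes were within 1 point of 0, while the medians at promoters and within 1 kb of a gene end kept their sign.

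**Figure D4:**
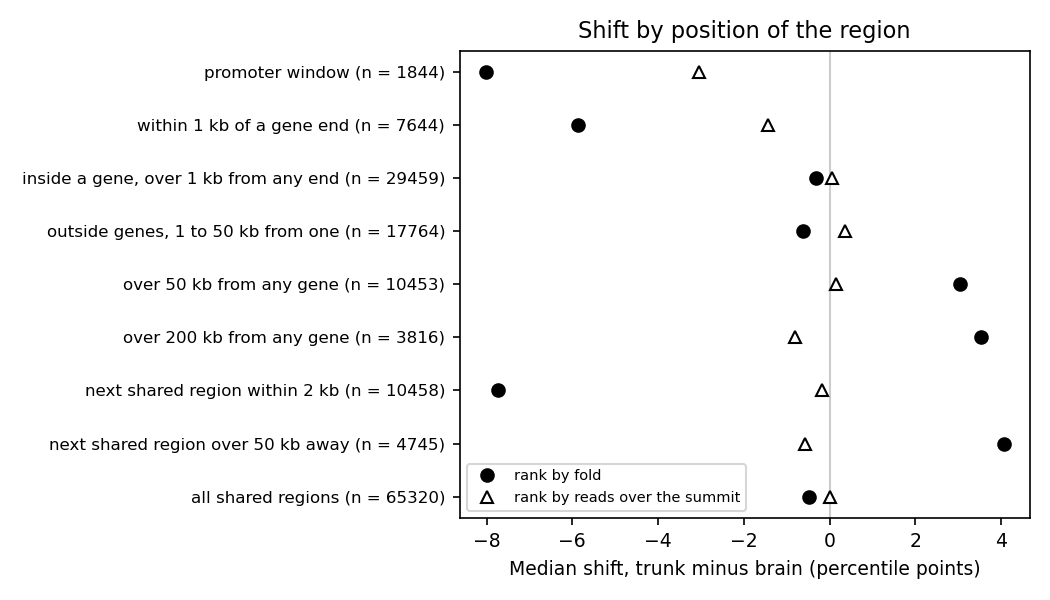
Median shift of the percentile (trunk minus brain, in points) by position of the region, ranked by fold (filled circles) and by extended reads over the summit (open triangles), with the number of regions in brackets. Promoter regions lie at -8.02 and -3.06, while regions with a close neighbour lie at -7.73 by fold and -0.18 by reads.

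Chromosomes differed little. The autosomal medians ran from -2.01 points on chromosome 11 to 0.76 on chromosome 13 by fold. The X chromosome had the highest median, 2.75 by fold over 1841 regions, but -1.20 by pileup. The 39 regions of the Y chromosome had a median of -8.40 by fold and -11.9 by pileup, and a median pileup ratio of 0.968 against 1.39 over all regions. The sex of the pooled embryos is not stated.

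Neighbouring regions showed little shift in common. The correlation of shifts between adjacent regions was between 0.040 and 0.107 at every distance class from under 2 kb to over 100 kb. Of 3215 windows of 500 kb with at least 8 shared regions, 120 had a median shift of 10 points or more toward trunk and 47 of 10 or more toward brain. The interquartile range of the window medians was -3.10 to 2.67.

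Among the windows shifted most toward brain were those on chromosome 8 around Defb33, a defensin gene (median -20.0 by fold, -18.1 by pileup), on chromosome 2 from Zc3h15 to Zswim2 (-16.1 and -11.3) and on chromosome 4 at Map3k7 and Bach2 (-16.0 and -9.60). A window on chromosome 11 with Rack1 and Trim genes had -13.9 by fold but -0.59 by pileup.

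On the trunk side, the window chr14:28500001-29000000 held Wnt5a, the ligand that drives outgrowth of the tailbud and the limb, and part of the calcium channel gene Cacna2d3. Its 9 regions had a median shift of 18.9 points by fold and 15.8 by pileup. The region 187 kb from Wnt5a, at chr14:28714095-28714719, had 212 reads in trunk and 59 in brain, with folds of 12.2 and 4.82 and a shift of 40.8. Its folds in the forelimb parts were 8.90 and 8.49, between those of trunk and brain. A region 4.02 kb from the gene had 83 reads against 32. Inside Wnt5a a strong region went the other way by fold, with 369 and 314 reads, folds of 10.5 and 14.3 and a shift of -23.2, but 3.12 by pileup.

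The other 4 windows highest on the trunk side held Bnc2, a zinc-finger gene of mesenchyme (19.4 by fold, 16.3 by pileup), Lratd2 and A1bg (21.5 and 14.8), Adam6a (22.5 and 8.42) and Fbxw17 with Nutm2 (22.9 and 9.35). By fold, 3 of the 8 regions at Bnc2, 2 of the 8 at Lratd2, 5 of the 14 at Adam6a and 4 of the 8 at Fbxw17 were shifted by 25 points or more toward trunk. At Lratd2 1 region was shifted as far toward brain. Over all shared regions 4.39% were shifted toward trunk. The windows were chosen by their median fold shift, so these counts partly restate the choice.

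Gene groups of the 2 tissues were examined as loci, with every shared region within 50 kb of a listed gene. The Hox list held 47 genes, among them the Hox genes, which set position along the body axis, and also Evx1. It had 51 regions with a median shift of -8.94 points by fold but 3.30 by pileup. Of these, 3 (5.88%) were shifted by 25 points toward trunk and 5 (9.80%) toward brain, against 4.39% and 3.08% of all shared regions. By both measures 3 and 1 were, against 1.45% and 1.66%. The local background at these regions was 23.0 reads in trunk and 15.2 in brain, against 16.2 and 12.46 over all shared regions. The 30 tailbud and presomitic mesoderm genes had 234 regions with a median of -5.19 by fold but 1.5 by pileup. By fold 6 regions (2.56%) were shifted toward trunk and 9 (3.85%) toward brain, and by both measures 6 and 4 were. The 15 somite genes had 81 regions at 0.52 by fold and 3.75 by pileup. By fold 7 (8.64%) were shifted toward trunk and 2 (2.47%) toward brain, again against 4.39% and 3.08%. By both measures 4 and 0 of the 81 were, against 1.45% and 1.66% of all shared regions. The sign of the Hox and tailbud medians thus depended on the measure ranked.

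The 33 telencephalon genes had 166 regions with a median of -7.84 by fold and -1.58 by pileup. Of these, 15 (9.04%) were shifted toward brain and 7 (4.22%) toward trunk, against 3.08% and 4.39% of all shared regions. By both measures 4 and 2 of the 166 were, against 1.66% and 1.45%, so the trunk share by fold and the brain count by both measures were near the background. The 20 long neuronal genes had 424 regions at 0.44 by fold but -2.98 by pileup. By fold 17 (4.01%) were shifted toward trunk and 15 (3.54%) toward brain, near the 4.39% and 3.08% of all shared regions. By both measures 12 of the 424 were shifted toward brain and none toward trunk, against 1.66% and 1.45% of all shared regions. The clustered protocadherins, adhesion genes chosen by promoter in neurons with the help of CTCF, had 70 regions at 2.59 by fold and -0.28 by pileup. By fold 2 (2.86%) were shifted toward trunk and 1 (1.43%) toward brain. None of the 70 was shifted 25 points by both measures, which in a list of this size is near the 1.45% and 1.66%.

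The remaining lists were given the same treatment. Ribosomal protein genes, active in every cell, had a median of -5.70 by fold and -0.42 by pileup over 261 regions. Blood and endothelium genes had -5.65 and -0.32 over 56 regions, X inactivation genes -3.01 and -4.74 over 48, imprinted genes -0.13 and 0.59 over 113, and hindlimb genes -0.65 and 5.25 over 15. A list of genes used in all cells therefore had a median by fold as far below 0 as the tailbud and blood lists.

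**Figure D5:**
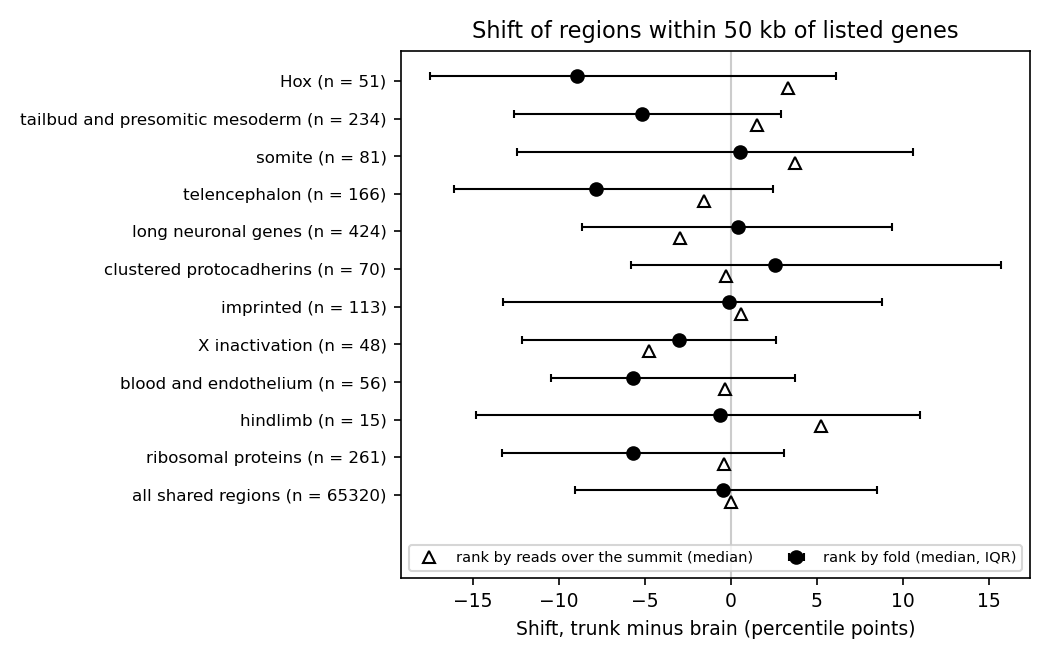
Shift of the percentile (trunk minus brain, in points) for shared regions within 50 kb of the genes of each list, with the median and interquartile range by fold (filled circles) and the median by extended reads over the summit (open triangles). The Hox median is -8.94 by fold and 3.30 by reads, and the telencephalon median -7.84 and -1.58.

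Genes of the same list lay on either side, as shown by those with the highest and lowest medians. Around Nkx3-2, a homeobox gene of the sclerotome, 4 regions had a median shift of 15.4 points by fold and 10.8 by pileup. The strongest shift there, at chr5:41729133-41729675, came with 110 reads in trunk and 29 in brain and folds of 8.10 and 2.90, against 3.66 and 3.72 in the forelimb parts. Around Rspo3, an activator of Wnt signalling in the tailbud, 3 regions had a median of 16.0 by fold and 12.2 by pileup. Its region 20.1 kb from the gene had 82 and 33 reads. Pitx1, a hindlimb homeobox gene, had 6 regions at 11.0 by fold and 14.0 by pileup, in trunk tissue from which the hindlimb buds were meant to be removed. Toward brain, 3 regions around Tbx18, a T-box gene of the somite list, had a median of -13.9 by fold and -4.24 by pileup. Among tailbud genes, Sp8, a zinc-finger gene, had 3 regions at -19.6 and -10.5, and Nkd1, a Wnt antagonist gene, 7 regions at -12.6 and -14.2. Tbx4, the other hindlimb gene with enough regions to be named, had 8 regions at -9.91 by fold but 1.58 by pileup. Gsx1, a telencephalon homeobox gene, had 7 regions at 12.2 and 4.61, on the trunk side. On the brain side of the telencephalon list, Neurog2 had 7 regions at -13.0 and -2.90, and Nr2f1 6 regions at -12.8 and -2.57. Over that list 58 of the 166 regions had a positive fold shift and 108 a negative 1.

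Within the Hoxb cluster a region inside Hoxb3 stood out, at chr11:96338246-96338727. It had 192 reads in trunk and 32 in brain, a fold of 8.44 against 2.99, and folds of 5.07 and 4.30 in the forelimb parts. Its shift was 40.5 points by fold and 50.1 by pileup. The next shared region, also inside Hoxb3 at chr11:96345986-96346380, had 161 reads in trunk and 58 in brain. It shifted by -2.73 points by fold but 18.4 by pileup. Farther off in the cluster, a region in Hoxb6 at chr11:96294351-96295060 had 347 reads in trunk and 287 in brain. Its shift was -30.2 by fold but 2.60 by pileup, where the background was 33.2 in trunk and 17.8 in brain.

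From Evx2 to Hoxd1 there were 11 shared regions, all between Evx2 and Hoxd3 on chromosome 2, and none was shifted by 25 points. By fold 10 of the 11 ranked lower in trunk, with a median of -12.7 points, but by pileup 6 ranked higher and 5 lower, with a median of 0.65. The largest pileup shift in either direction was 14.5 points. The background was 28.0 in trunk and 18.4 in brain over these regions. The largest fold shift, -24.9 points, was at chr2:74663488-74664014, 1.97 kb from Evx2, with 322 reads in trunk and 287 in brain and folds of 8.73 and 11.9. The region over Hoxd11 and Hoxd10, at chr2:74686193-74686851, had 303 and 280 reads and folds of 10.8 and 14.5. The region inside Hoxd10 at chr2:74693958-74694476 had 326 reads in trunk and 190 in brain, folds of 8.96 and 9.66, and the 14.5-point pileup shift toward trunk. The region inside Hoxd3 had 331 and 257 reads and folds of 11.8 and 14.0. Trunk pileups were over 300 in 5 of the 11 regions, toward the possible ceiling of 400, and its part in the pileup order there was not tested.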

How the data were processed

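Per the submitters' processing notes, reads went through cutadapt (1.16), Bowtie2 (2.3.5) and SAMtools (1.9) on build mm10, and MACS2, in version 2.1.1.20160309, was the peak caller named. Their options, any input control and any removal of repeated reads were not given in the sources used here. In all, the authors deposited 1 narrowPeak list per library, with a score, a fold (a ratio to local background) and the −log10 of both the p-value and the q-value for each summit. The lowest deposited −log10 q was 1.3, a q of 0.05.

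Rows with the same interval were collapsed to the row of highest fold, and chromosomes 1 to 19, X and Y were kept. A whole pileup and its background were solved from the fold and the −log10 p of every row, and the −log10 p computed back differed by no more than 0.000309. Background above the lowest value lay in steps of 0.02 reads, which is what 1 read extended to 200 bases adds over 10 kb. Peaks sharing at least 1 base were merged, and coordinates are 1-based. The methods were tested on simulated data. Gene spans and promoter windows (250 bases before to 50 after a gene start) came from RefSeq GRCm38.p6.

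Grouping followed the labelled tissue. With 1 library per tissue no test was run, and intervals are exact binomial ones at 95%, for counting error only. The regions named were the 12 with the largest shift each way, the 6 among regions at percentile 50 or higher in both lists, the 6 whose counting interval excludes the median ratio, the 5 by width, the 5 windows each way and up to 3 genes per list each way, of which a part is printed and 1 locus is not reported here. Single regions picked from named windows or genes were chosen after their values were seen. The members, gene lists and rules were chosen with earlier results of these data known. Alternatives changed the measure ranked, the overlap, the threshold, the population and the size of shift. Python 3.11.15, numpy 2.4.6, pandas 2.3.3, scipy 1.17.1 and matplotlib 3.10.9 were used.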

Additional observations from a re-analysis of the deposited data

Results flagged for a closer look

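Peaks on sequences outside chromosomes 1 to 19, X and Y entered no comparison. No control library was at hand to set beside them. On the mitochondrial sequence there were 4 peaks in posterior trunk and 12 in brain. Unplaced sequences held 103 in posterior trunk and 111 in brain. Nothing was read from these counts.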

How the results depend on the processing

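No paired analysis was possible because only 1 library was at hand per tissue. Ranking by pileup gave 1084 trunk-shifted and 1321 brain-shifted regions, against 2865 and 2014 by fold, and a correlation of 0.9297 against 0.8821. Ranking by −log10 p gave 1359 trunk-shifted regions and a correlation of 0.9187. Requiring both fold and pileup, an alternative chosen after seeing the data, gave 946 and 1082. Percentiles within the whole lists gave 10865 and 396, a change that follows from the unequal length of the lists. Regions at the lowest background in both lists numbered 2669, with 406 and 403 shifted, a fold correlation of 0.6101 and a width correlation of 0.4170. A shift of 20 points gave 5285 and 4226 regions, and 40 points gave 329 and 251. Reciprocal overlap gave correlations of 0.8873 for fold and 0.8494 for width. The width correlation, 0.7901, became 0.7959 with summits within 100 bases, 0.7952 with 1 peak of each list and 0.7954 at a −log10 q of at least 5. Of the alternative values for gene lists, promoters, pairs of lists and counting intervals, 66 moved little and 41 moved. Causes were not tested. The lists hold called peaks only, so a region near the threshold in brain can be missing, and the lowest pileups called were 20 reads in trunk and 19 in brain.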
